A study of Mus musculus with 4 samples.

Results

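The endoplasmic reticulum chaperones described here are 10 genes, Hspa5, Dnajb11, Sdf2l1, Hyou1, Hsp90b1, Calr, Canx, Pdia3, Pdia4 and Pdia6, found by symbol among the 21933 genes counted in single-nucleus RNA sequencing of the mouse cerebral cortex. All 10 were found once each. They were chosen by earlier results of the same nuclei, among them a lower Hspa5 in inhibitory neurons of mice without the creatine transporter, so every value that compares genotypes below describes the genes and is no independent test of them. The cell type comparisons within control animals were not used to choose them.

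Proteins that are secreted or sit in membranes fold in the endoplasmic reticulum, where the Hsp70 protein BiP (Hspa5) binds unfolded chains with the help of J-domain partners and a nucleotide exchange factor. GRP94 (Hsp90b1) is the Hsp90 of this compartment, calnexin and calreticulin hold glycoproteins through their sugar chains, and protein disulfide isomerases form and rearrange disulfide bonds. When unfolded proteins accumulate, the sensors Ire1, Perk and Atf6 raise transcription of many of these genes in the unfolded protein response, partly through promoter elements named ERSE, ERSE-II and UPRE. In neurons the same machinery folds receptors, channels and adhesion proteins on their way to the surface.

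Promoter windows were used to look for sequence elements among the members. RefSeq promoter windows on GRCm38.p6, running from 250 bases before to 50 bases from the start site, were given for 9 members, all but Hyou1. Both strands were searched for 4 consensuses. ERSE, spelled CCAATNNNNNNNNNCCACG, was found in 5 of 9 members, Hspa5, Hsp90b1, Calr, Canx and Pdia6, and in 0.137% of the 27025 genes with a window. ERSE-II, spelled ATTGGNCCACG, was found in Dnajb11 and in 0.0444% of all genes. UPRE, spelled TGACGTGG, was found in 0 of 9 members and in 0.714% of genes. The Hspa5 window held tgacgtga, which differs from this spelling in its last base and was not counted. The bare CCAAT box, which both ERSE forms hold on 1 strand or the other, was found in 9 of 9 members and in 41.1% of genes. Pdia3, Pdia4 and Sdf2l1 held none of ERSE, ERSE-II and UPRE. ERSE was named above as an element that raises many of these genes. Its frequency among them is therefore a description and no independent finding. ERSE matches are shown because they were frequent among the members and rare among all genes. Each is printed on the gene's own strand with 10 bases on either side, the match in capitals, and Calr carries the consensus on the opposite strand.
Hspa5, chr2:34772015-34772053 (+): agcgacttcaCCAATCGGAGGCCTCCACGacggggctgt
Calr, chr8:84847065-84847103 (-): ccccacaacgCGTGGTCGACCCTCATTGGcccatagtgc
Canx, chr11:50325790-50325828 (-): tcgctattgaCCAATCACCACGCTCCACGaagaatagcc
Pdia6, chr12:17266481-17266519 (+): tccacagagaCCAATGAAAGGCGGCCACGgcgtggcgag
Hsp90b1, chr10:86705523-86705666 (-): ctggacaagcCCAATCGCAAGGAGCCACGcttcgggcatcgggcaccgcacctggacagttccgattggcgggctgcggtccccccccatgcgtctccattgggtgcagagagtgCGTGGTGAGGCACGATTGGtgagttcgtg

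Hsp90b1 held ERSE in both orientations, the first on the printed strand and the second on the other, and was the 1 member with 2 matches. The matches of Hspa5, Pdia6, Canx and Calr began 65, 98, 145 and 162 bases before the start site. In the GENCODE annotation used here for gene positions, which held 99.5% of the counted genes, Hspa5 begins at chr2:34771970, upstream of its match. The ERSE-II match of Dnajb11, ATTGGCCCACG, lay 8 to 18 bases after the start site. A match describes letters in the window and was not tested for binding or use.

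**Figure D1:**
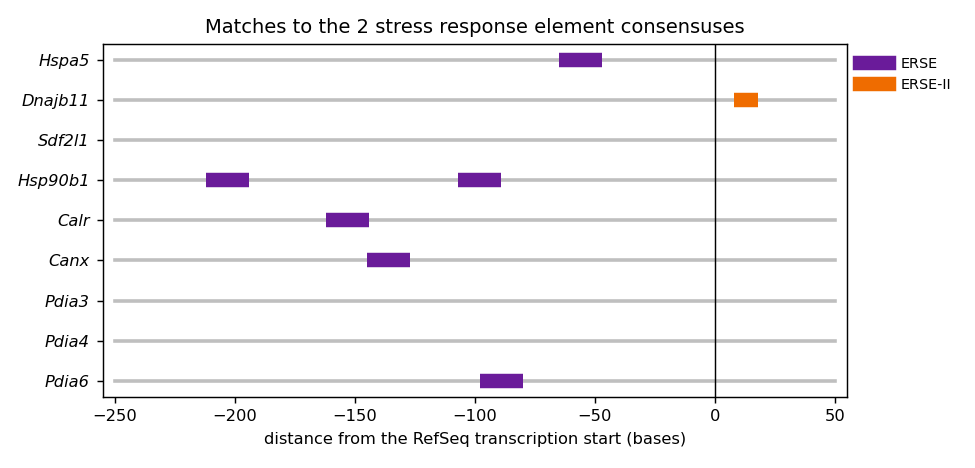
Positions of the ERSE (purple) and ERSE-II (orange) matches in the promoter windows of 9 members, on an axis of bases from the RefSeq transcription start (vertical line). Grey lines show the window searched, and 5 of 9 members carry ERSE, Hsp90b1 at 2 positions.

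Nuclei came from the right cerebral cortex of adult male mice on a C57BL/6J background, 1 animal per library and no treatment. The 2 Control animals were CrT+/y and the 2 CrT-KO animals were CrT-/y littermates with a hemizygous deletion of exons 5 to 7 of the X-linked creatine transporter gene Slc6a8. All 4 libraries were made with a 3′ kit from nuclei sorted by flow cytometry. Nuclei hold newly made and unspliced RNA and little cytoplasmic RNA, so each value below is a nuclear level, given as CPM, the gene's UMIs per 1000000 UMIs of a library's nuclei of that class. A log2 ratio is the edgeR estimate for CrT-KO over Control with its standard error (SE). A genotype difference called here has an edgeR quasi-likelihood adjusted p under 0.1 over all genes tested in that class, with n = 2 libraries per genotype.

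The 4 libraries held 8282 to 9295 nuclei and 51507483 to 65240843 UMIs, and any 2 libraries shared 12 to 19 barcodes, at most 0.215% of the smaller. After 1236 likely doublets were left out, 32440 nuclei in 29 of 34 clusters took a cell class from marker genes. Slc6a8 had 6.94 and 6.04 CPM in Control and 1.66 and 1.66 in CrT-KO over all named nuclei (log2 ratio -1.92 with SE 0.16, edgeR adjusted p = 0.0105). The 3′ libraries need not read the deleted exons, so this fall does not test the deletion itself. Among inhibitory nuclei several subclusters carried markers of striatal projection neurons (MSN-like), although the labels give cortex cells. Of the 24 subclusters of inhibitory nuclei, 10 took no subclass name, and some of these scored highest for MSN-like markers. Other unnamed subclusters, of 373, 107 and 26 nuclei, had Slc17a6, a marker listed for excitatory neurons, among their leading genes. Another, of 37 nuclei, had Slc5a7 and Chat among them. The class called inhibitory neurons below holds all 24 subclusters, so its values are not those of cortical interneurons alone, and some of its nuclei may not be inhibitory. UMIs of ribosomal protein genes were lower in both CrT-KO libraries than in both controls, at 277 and 247 against 305 and 298 CPM over all named nuclei, and their part in the results below was not tested.

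Hspa5 (ENSMUSG00000026864, chr2:34771970-34777547, + strand), which encodes BiP, had the largest difference between genotypes of the members tested in either neuronal class. In excitatory neurons it had 480 and 510 UMIs in Control and 315 and 257 in CrT-KO, or 14.5 and 14.6 against 7.78 and 8.03 CPM. In inhibitory neurons it had 239 and 215 UMIs in Control and 142 and 112 in CrT-KO, or 21.1 and 17.7 against 10.1 and 11.1 CPM. Both CrT-KO libraries lay below both controls in each neuronal class. Mean levels were 45.7% lower in excitatory neurons (log2 ratio -0.83 with SE 0.12, edgeR adjusted p = 0.0252) and 45.5% lower in inhibitory neurons (-0.86 with SE 0.15, edgeR adjusted p = 0.00780). The difference between those 2 effects was -0.03 (SE 0.15, edgeR adjusted p = 0.983 for the interaction of class and genotype).

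Over all named nuclei Hspa5 had 17.4 and 17.1 CPM in Control and 9.46 and 10.2 in CrT-KO (log2 ratio -0.77 with SE 0.10, edgeR adjusted p = 0.0981). That call lies next to the threshold, and without Control replicate 1 or 2 the adjusted p was 0.372 or 0.585. In excitatory neurons the adjusted p was 0.156 without Control replicate 2. In inhibitory neurons Hspa5 was still called when each of the 4 libraries was left out in turn, with adjusted p from 0.000247 to 0.0763, while DESeq2 gave an adjusted p of 0.175 there, 0.000432 in excitatory neurons and 0.000106 over all named nuclei. Over the alternatives tried the estimates ranged from -0.87 to -0.79 in excitatory and from -0.95 to -0.76 in inhibitory neurons.

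Glia and vascular cells gave a less even picture. In oligodendrocytes Hspa5 had 30.2 and 33.0 CPM in Control and 24.0 and 23.5 in CrT-KO (log2 ratio -0.43 with SE 0.21, edgeR adjusted p = 0.749). In oligodendrocyte precursors (OPCs) it had 47.0 and 26.4 against 12.6 and 19.8 CPM, from 22, 14, 6 and 6 UMIs (-1.21 with SE 0.49, edgeR adjusted p = 0.910). In both classes the libraries of the genotypes did not overlap, and neither difference passed the threshold. Oligodendrocytes of CrT-KO also had lower sums of their own 18 markers, 20120 and 19559 against 22485 and 20845 CPM, of inhibitory neuron markers, 3516 and 3393 against 4132 and 3884, of OPC markers, 901 and 911 against 1532 and 1040, and of ribosomal protein genes, 508 and 454 against 517 and 557. Their sums of astrocyte markers were higher, 459 and 429 against 339 and 350. The part of these in the chaperone levels was not tested. Microglia had 52.3 and 53.5 in Control and 40.9 and 60.7 in CrT-KO, so that the controls lay between the CrT-KO libraries (-0.07 with SE 0.29, edgeR adjusted p = 0.987). Astrocytes had 39.5 and 33.6 against 30.1 and 16.1, from 5 to 15 UMIs per library (-0.60 with SE 0.53, edgeR adjusted p = 1.00). In endothelial cells and pericytes, where Hspa5 was counted at 3, 7, 8 and 4 UMIs and was too low to test, both CrT-KO libraries lay above both controls. The effect in microglia differed from that in excitatory neurons by 0.73 (SE 0.32, edgeR unadjusted p = 0.0214, adjusted p = 0.836), a test added after the values in microglia were seen.

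**Figure D2:**
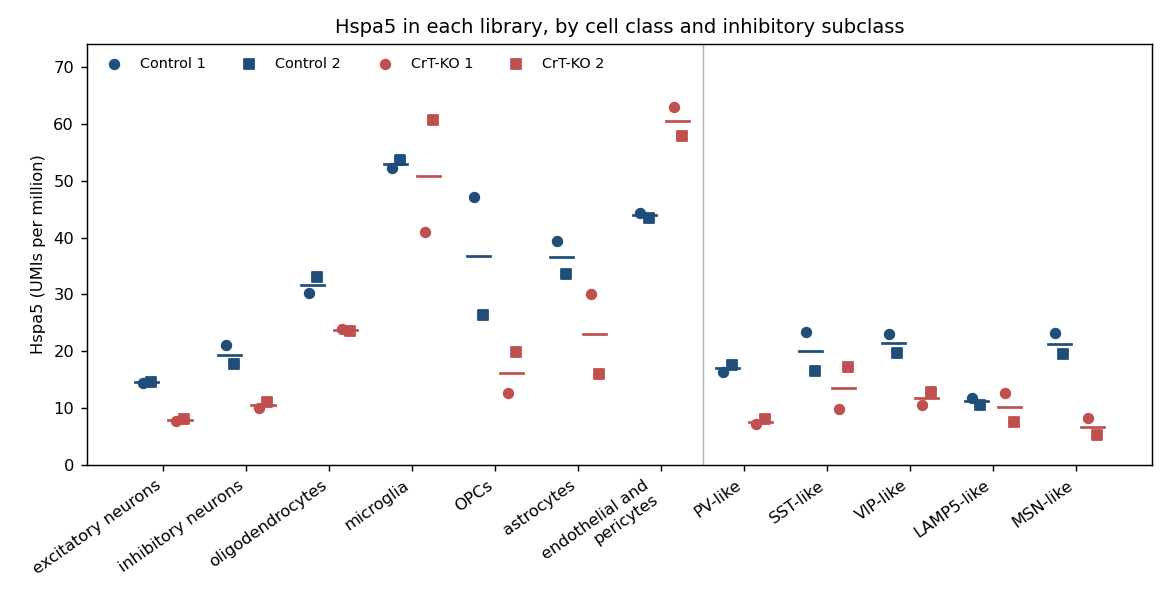
Hspa5 in CPM (vertical axis) for each of the 4 libraries, by cell class (left of the grey line) and inhibitory subclass (right), with circles for replicate 1, squares for replicate 2 and bars for the mean of each genotype. CrT-KO points (red) sit below Control points (blue) in excitatory neurons, inhibitory neurons, oligodendrocytes, OPCs, astrocytes and PV-like, VIP-like and MSN-like nuclei, and above them in endothelial cells and pericytes.

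Among inhibitory subclasses Hspa5 was called in MSN-like nuclei. They held 37 and 39 UMIs in Control and 17 and 7 in CrT-KO, or 23.2 and 19.5 against 8.28 and 5.25 CPM (log2 ratio -1.58 with SE 0.34, edgeR adjusted p = 0.0830). DESeq2 gave an adjusted p of 1.00, and without Control replicate 1, CrT-KO replicate 1 or CrT-KO replicate 2 the edgeR adjusted p was 0.158, 0.1404 or 0.201. With doublets kept it was 0.142. In parvalbumin-like (PV-like) nuclei, the fast-spiking interneurons, the values were 16.4 and 17.6 against 7.24 and 8.04 CPM (-1.15 with SE 0.31, edgeR adjusted p = 0.335). VIP-like nuclei had 23.1 and 19.8 against 10.6 and 12.9 (-0.89 with SE 0.36, edgeR adjusted p = 0.945). Genotypes did not overlap in these subclasses. They did overlap in SST-like nuclei, with 23.5 and 16.5 against 9.85 and 17.2, and in LAMP5-like nuclei, with 11.8 and 10.5 against 12.8 and 7.57.

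Clusters of nuclei, made without the members and without the pathway genes listed below, gave a finer view of Hspa5. Of 26 clusters with at least 100 control nuclei, 25 had a lower level in CrT-KO, and in 21 both CrT-KO libraries lay below both controls. All 17 neuronal clusters were among the 25, and the libraries did not overlap in 14 of them. The other members were lower in 13 (Sdf2l1) to 23 (Hsp90b1) of the 26 clusters and in 8 to 16 of the 17 neuronal ones. Both CrT-KO libraries lay below both controls in 4 (Sdf2l1) to 15 (Calr) clusters for these members. Lower levels across clusters were thus not particular to Hspa5, and the share over all genes was not counted by cluster. The lowest control level of Hspa5 was 11.4 CPM in the excitatory cluster led by Rorb and Prr16, where CrT-KO had 6.17. The widest gap among neurons was in the inhibitory cluster led by Drd3 and Gpr149, with 27.9 in Control and 10.3 in CrT-KO, from 6, 9, 6 and 2 UMIs per library. The inhibitory cluster led by Grin3a and Synpr had 23.1 and 17.6 in Control and 5.68 and 18.4 in CrT-KO, with the second CrT-KO library between the controls. Clusters of 1 animal share its library, so they are not replicates. With each cluster's control level held fixed, the shift in cluster shares between genotypes gave an expected Hspa5 difference of -0.0020 in excitatory and 0.0015 in inhibitory neurons on the log2 scale.

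**Figure D3:**
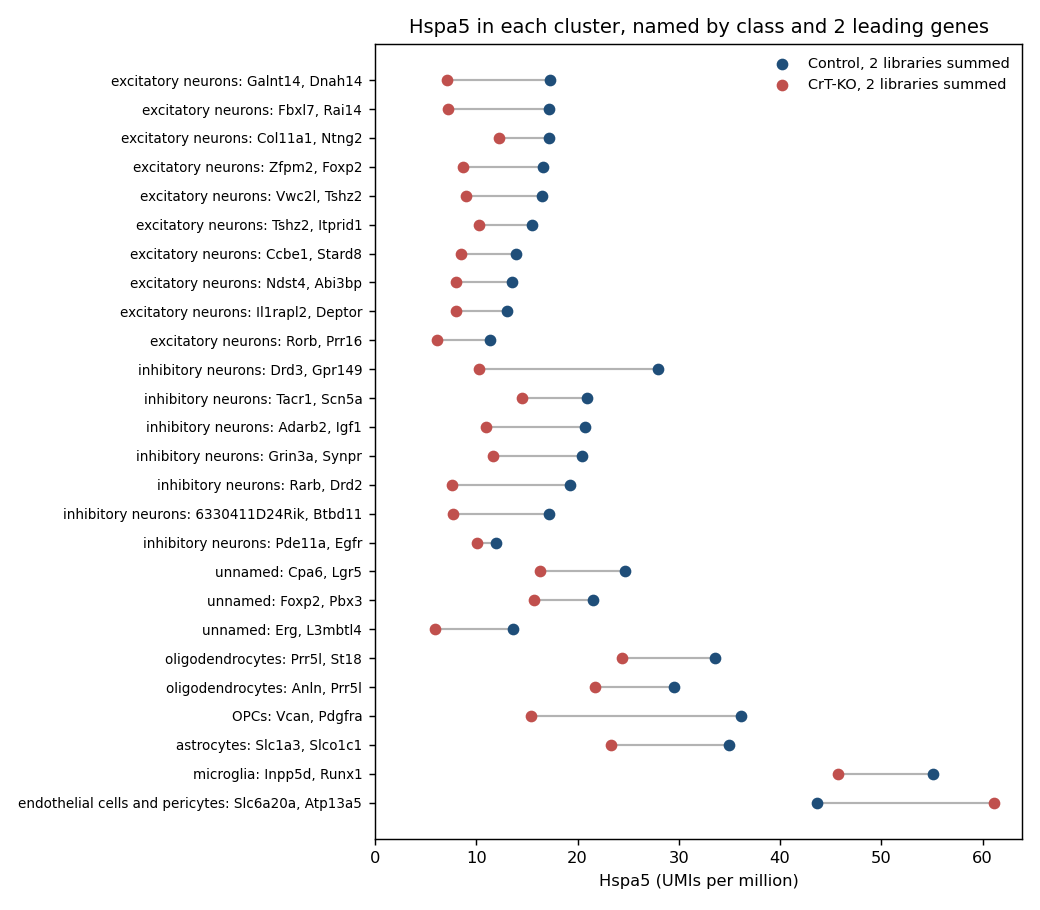
Hspa5 in CPM (horizontal axis) in each of 26 clusters, labelled by cell class, where it has one, and leading genes, with the 2 libraries of a genotype summed (blue Control, red CrT-KO, grey line between them). Red lies left of blue in 25 of 26 clusters, the exception being endothelial cells and pericytes.

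Of the partners of BiP, Hyou1 and Dnajb11 had smaller estimates than Hspa5 in both neuronal classes. Hyou1 (GRP170, chr9:44379490-44392369, + strand), which exchanges nucleotide on BiP, had 7.75 and 10.7 CPM in Control and 6.87 and 7.66 in CrT-KO in excitatory neurons (log2 ratio -0.30 with SE 0.17, edgeR adjusted p = 0.652). Inhibitory neurons had 10.5 and 10.3 against 7.61 and 7.33 (-0.46 with SE 0.18, edgeR adjusted p = 0.814). Both CrT-KO libraries were below both controls in each class, and the difference did not pass the threshold in either. Oligodendrocytes had 8.88 and 11.6 against 5.85 and 6.17 (-0.80 with SE 0.38, edgeR adjusted p = 0.745), also without overlap.

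Dnajb11 (ERdj3, chr16:22857845-22879634, + strand), a J-domain partner that delivers unfolded chains to BiP, had overlapping libraries in neurons. It had 13.2 and 15.6 CPM in Control and 12.4 and 13.5 in CrT-KO in excitatory neurons, and 12.4 and 14.0 against 11.5 and 12.6 in inhibitory neurons. In oligodendrocytes it had 25.5 and 25.0 against 15.2 and 20.2 (log2 ratio -0.52 with SE 0.25, edgeR adjusted p = 0.745), and in microglia 20.9 and 33.6 against 36.0 and 42.3 (0.47 with SE 0.37, edgeR adjusted p = 0.957). Libraries of the genotypes did not overlap in these 2 glial classes, in opposite directions. Sdf2l1 (chr16:17130138-17132383, - strand), which stabilises J-domain partners of BiP, was near the limit of detection. It had 12, 17, 5 and 7 UMIs over all named nuclei of Control 1, Control 2, CrT-KO 1 and CrT-KO 2 (-1.27 with SE 0.49, edgeR adjusted p = 0.705) and passed the filter on low counts in no single class.

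Hsp90b1 (GRP94, chr10:86690209-86705509, - strand), which folds Toll-like receptors, integrins and other client proteins, lay below control without overlap in both neuronal classes. It had 31.8 and 36.5 CPM in Control and 24.5 and 28.04 in CrT-KO in excitatory neurons (log2 ratio -0.33 with SE 0.11, edgeR adjusted p = 0.380). In inhibitory neurons it had 39.7 and 38.5 against 30.1 and 32.01 (-0.32 with SE 0.11, edgeR adjusted p = 0.690). The difference between those effects was 0.02 (SE 0.10). Oligodendrocytes had 55.05 and 63.4 against 45.6 and 46.5 (-0.38 with SE 0.17, edgeR adjusted p = 0.725). Among subclasses, PV-like nuclei had 51.0 and 40.3 against 31.8 and 33.2 and LAMP5-like nuclei 66.3 and 46.2 against 28.3 and 32.2, whereas MSN-like nuclei had 36.4 and 31.0 against 32.1 and 36.8. Microglia had 123 and 127 against 133 and 123, with no separation. None of these differences passed the threshold. Over the alternatives tried, the Hsp90b1 estimates in excitatory neurons ranged from -0.45 to -0.21.

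Calr (calreticulin, chr8:84841850-84846934, - strand), a lectin chaperone and calcium buffer of the lumen, had 8.33 and 8.52 CPM in Control and 6.47 and 4.75 in CrT-KO in excitatory neurons (log2 ratio -0.53 with SE 0.15, edgeR adjusted p = 0.311). In inhibitory neurons it had 10.8 and 9.08 against 7.46 and 6.44 (-0.48 with SE 0.19, edgeR adjusted p = 0.810). Genotypes did not overlap in either class, and the second CrT-KO library was the lowest in both. Over the alternatives tried, the Calr estimates in excitatory neurons ranged from -0.76 to -0.35. Oligodendrocytes had 9.47 and 15.6 against 14.6 and 12.3, with no separation.

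Canx (calnexin, chr11:50293961-50325673, - strand), the membrane-bound lectin chaperone, had 45.5 and 53.3 CPM in Control and 46.1 and 46.9 in CrT-KO in excitatory neurons (log2 ratio -0.04 with SE 0.09, edgeR adjusted p = 0.937). Inhibitory neurons had 55.2 and 64.4 against 53.0 and 60.4 (-0.07 with SE 0.10, edgeR adjusted p = 0.998). These libraries overlapped, and in each class the interval of 2 SE held 0. Oligodendrocytes had 72.8 and 86.6 against 59.1 and 67.3 (-0.36 with SE 0.16, edgeR adjusted p = 0.739), and OPCs had 62.0 and 56.7 against 65.1 and 69.3 (0.17 with SE 0.28, edgeR adjusted p = 0.992). The genotypes did not overlap in these last 2 classes and lay in opposite directions.

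Pdia3 (ERp57, chr2:121413775-121438687, + strand), the disulfide isomerase that works with both lectin chaperones, had 31.8 and 47.6 CPM in Control and 33.1 and 36.6 in CrT-KO in excitatory neurons (log2 ratio -0.15 with SE 0.16, edgeR adjusted p = 0.845). In inhibitory neurons it had 38.8 and 47.6 against 34.98 and 37.8 (-0.24 with SE 0.11, edgeR adjusted p = 0.917). The libraries overlapped in excitatory and not in inhibitory neurons, and in both classes the 2 controls differed from each other by more than the genotype means did. The gene overlaps Catsper2, and Pdia6 overlaps Atp6v1c2. Whether the counting used strand is not given in the sources used here, so the levels of both members are uncertain.

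Pdia6 (P5, chr12:17266545-17284770, + strand), a disulfide isomerase found together with BiP, had 15.4 and 20.1 CPM in Control and 11.7 and 14.6 in CrT-KO in excitatory neurons (log2 ratio -0.39 with SE 0.15, edgeR adjusted p = 0.496). Inhibitory neurons had 15.8 and 15.6 against 12.2 and 12.1 (-0.35 with SE 0.15, edgeR adjusted p = 0.863). In microglia it was the 1 member tested whose CrT-KO libraries both lay below control, with 37.6 and 50.5 against 32.7 and 25.7 (-0.60 with SE 0.35, edgeR adjusted p = 0.907). Over the alternatives tried, the Pdia6 estimates in excitatory neurons ranged from -0.59 to -0.16. Pdia4 (ERp72, chr6:47796141-47813430, - strand), a disulfide isomerase with several catalytic domains, had 4.41 and 8.38 against 4.30 and 5.47 in excitatory neurons (-0.35 with SE 0.26, edgeR adjusted p = 0.753), and 6.81 and 7.34 against 6.04 and 4.66 in inhibitory neurons (-0.37 with SE 0.22, edgeR adjusted p = 0.964). Its libraries overlapped in excitatory and not in inhibitory neurons.

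**Figure D4:**
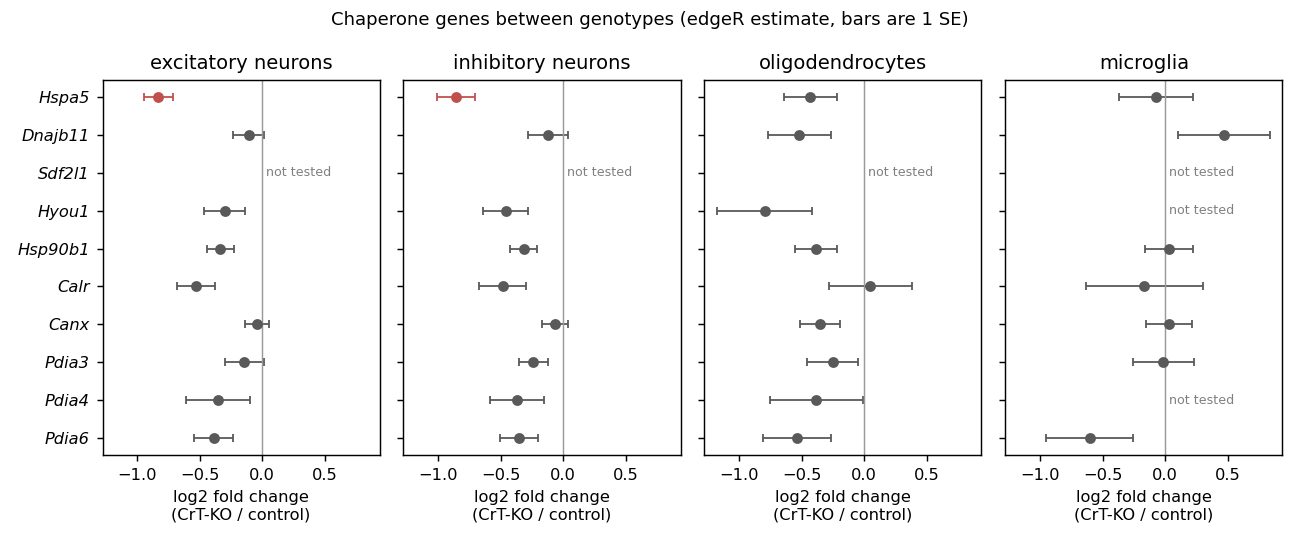
log2 fold change of each member between CrT-KO and Control (horizontal axis, edgeR estimate, bars are 1 SE) in 4 cell classes, red where the adjusted p was under 0.1 and "not tested" where a gene was filtered for low counts. Hspa5 stands furthest left in both neuronal classes, at -0.83 and -0.86, and the members spread around 0 in microglia.

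Counted over the list, 1 of 10 members passed the test over all named nuclei against 0.0402% of all genes, 1 of 9 in excitatory neurons against 0.137%, 1 of 9 in inhibitory neurons against 0.126% and 1 of 9 in MSN-like nuclei against 0.0695%. In each case that member was Hspa5, with a lower level in CrT-KO. Since the genotype contrast chose the genes, nothing is read from these shares. By edgeR 0 of 9 members were called in oligodendrocytes (background 0.0328%) and 0 of 7 in microglia (0.0412%). In OPCs 0 of 5 were called (0.0344%) and in astrocytes 0 of 4 (0.0199%). In subclasses edgeR called 0 of 9 members in PV-like (0.0866%) and 0 of 8 in SST-like nuclei (0.0562%). The counts were 0 of 5 in VIP-like (0%) and 0 of 4 in LAMP5-like nuclei (0.225%). DESeq2 also called 0 in each of these. An unadjusted edgeR p under 0.05 was found for 2 members in oligodendrocytes (601 of 9145 genes) and 0 in microglia (414 of 7289). It was found for 2 in OPCs (305 of 5813) and 0 in astrocytes (226 of 5026). Subclasses had 3 in PV-like (477 of 9237), 1 in SST-like (499 of 8891), 2 in VIP-like (325 of 7410) and 1 in LAMP5-like nuclei (311 of 6220). In endothelial cells and pericytes, where 0% of genes were called, no member passed the filter on low counts.

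Direction was more even than the calls. The log2 fold change was below 0 for 10 of 10 members over all named nuclei and for 9 of 9 in either neuronal class, 8 of 9 in oligodendrocytes and 4 of 7 in microglia. Medians of the members tested were -0.33 over all named nuclei, -0.33 in excitatory and -0.35 in inhibitory neurons, -0.38 in oligodendrocytes and -0.013 in microglia, while the median of all genes tested lay between -0.00426 and -8.64e-05. Both CrT-KO libraries were below both controls for 6 of 10 members over all named nuclei (27.6% of all genes), for 5 of 9 in excitatory neurons (29.4%) and 7 of 9 in inhibitory neurons (18.6%). Among glia this held for 6 of 9 in oligodendrocytes (17.1%), 1 of 7 in microglia (17.1%) and 2 of 5 in OPCs (17.4%). These classes come from the same 4 animals, so their counts are not independent of each other.

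Summed, the 10 genes took 173 and 216 CPM in Control and 153 and 166 in CrT-KO in excitatory neurons. In inhibitory neurons the sum was 211 and 225 against 173 and 185, and in oligodendrocytes 272 and 341 against 228 and 253. These sums were 17.9%, 18.0% and 21.4% lower in CrT-KO, with no overlap between genotypes in any of the 3 classes. In microglia the sum was 510 and 632 in Control and 532 and 644 in CrT-KO, and the genotypes overlapped.

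Differences of the genotype effect between classes were tested directly. Between inhibitory and excitatory neurons edgeR called 0 of 9 members against 0.199% of all genes, and DESeq2 called 0. An unadjusted edgeR p under 0.05 was found for 0 members and for 984 of 14070 genes. Between microglia and excitatory neurons 0 of 10 were called against 0.0644% of genes, and DESeq2 called 0. Hspa5 and Pdia4 had an unadjusted edgeR p of 0.0214 and 0.0479, and 699 of 13978 genes had one under 0.05. The estimates for Hyou1 and Pdia3, -0.16 (SE 0.19) and -0.10 (SE 0.09), were the largest between the neuronal classes.

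The rest of the pathway was described with lists of other genes, none of which holds a member. Sensors and transcription factors of the stress response, such as Ern1, Eif2ak3, Atf6 and Xbp1, had a median log2 fold change of -0.00046 over 14 genes tested in excitatory and -0.054 over 15 in inhibitory neurons. Other partners of BiP had medians of -0.033 and -0.046 over 12 genes in each class, and the other disulfide isomerases and oxidases -0.010 and 0.0081 over 16. Genes of degradation from the endoplasmic reticulum lay at 0.0069 and -0.030 over 19. These 4 lists lay near the median of all genes.

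Genes of the lectin cycle and glycan trimming had medians of -0.11 and -0.13 over 16 genes, 15 of them below 0 in each class, and those of the translocon and signal peptidase -0.056 and -0.094 over 17. Prolyl isomerases, which turn proline bonds during folding, had -0.23 over 7 genes in excitatory and 0.064 over 6 in inhibitory neurons. Immediate-early genes, which follow neuronal activity, had -0.21 over 18 and -0.22 over 15. In all these lists edgeR and DESeq2 called 0 genes in either class. At an unadjusted p under 0.05, edgeR gave 0 to 2 genes of a list, except 6 of 18 immediate-early genes in excitatory neurons. Of all genes tested, 1218 of 13910 in excitatory and 689 of 12714 in inhibitory neurons had such a p. The medians of the members, -0.33 and -0.35, lay below the median of each list. The genotype contrast chose the members, so nothing is read from this order.

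Cytosolic and mitochondrial heat shock chaperones, which fold proteins outside the endoplasmic reticulum, had medians of -0.25 over 18 genes in excitatory and -0.24 over 19 in inhibitory neurons. Of these, Hspa8, the constitutive cytosolic Hsp70, had 19.7 and 19.3 CPM in Control and 12.9 and 9.54 in CrT-KO in excitatory neurons (log2 ratio -0.74 with SE 0.13, edgeR adjusted p = 0.0940). In inhibitory neurons Hspa8 had 28.02 and 23.4 against 18.2 and 13.3 (-0.67 with SE 0.14, edgeR adjusted p = 0.0558). Hsp90ab1, the constitutive cytosolic Hsp90, had 39.6 and 36.3 against 24.7 and 18.0 in inhibitory neurons (-0.80 with SE 0.12, edgeR adjusted p = 0.00263) and 41.2 and 42.6 against 22.5 and 13.6 in PV-like nuclei (-1.18 with SE 0.22, edgeR adjusted p = 0.0116). DESeq2 gave adjusted p of 0.00395 for Hspa8 in excitatory neurons and 0.0196 for Hsp90ab1 in inhibitory neurons, but 0.966 for Hspa8 in inhibitory neurons and 0.640 for Hsp90ab1 in PV-like nuclei. Over this list, 17 of 18 genes were below 0 in excitatory and 17 of 19 in inhibitory neurons. Both CrT-KO libraries lay below both controls for 15 of 18 (29.4% of all genes) and 15 of 19 (18.6%). At an unadjusted p under 0.05, edgeR gave 8 of 18 and 9 of 19 genes, against 1218 of 13910 and 689 of 12714 genes tested. The list's median was -0.48 in oligodendrocytes and -0.48 in OPCs, where that of the members was -0.38 and -0.15. Lower levels in CrT-KO were thus not particular to the members.

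Other measured features moved with the genotype in the same classes. Ribosomal protein genes had 269 and 258 CPM in Control and 242 and 217 in CrT-KO in excitatory neurons, and 337 and 307 against 293 and 255 in inhibitory neurons. Mitochondrially encoded genes, whose RNA lies outside the nucleus, were lower in both CrT-KO libraries over all named nuclei (528 and 490 against 539 and 598 CPM). The same held in inhibitory neurons (679 and 617 against 785 and 738), in PV-like, VIP-like and SST-like nuclei and in OPCs. In astrocytes these genes were higher in both CrT-KO libraries (1208 and 1226 against 1010 and 940). They overlapped between genotypes in excitatory neurons (263 and 262 against 254 and 294) and in the remaining classes and subclasses. Genes with a body of up to 10 kb, the length class of Hspa5 (5.58 kb), Calr and Sdf2l1, had a median log2 fold change of -0.05 in excitatory and -0.06 in inhibitory neurons. In inhibitory neurons the summed markers of oligodendrocytes were also lower in CrT-KO, at 131 and 124 against 135 and 163 CPM, as were those of microglia, 68.3 and 72.8 against 78.6 and 76.8, and those of astrocytes, 558 and 555 against 576 and 578, while those of OPCs were higher, 1545 and 1525 against 1460 and 1482. Of those 18 oligodendrocyte, 22 microglial, 16 astrocyte and 14 OPC markers, 1 microglial marker was at 0. In excitatory neurons these 4 sums overlapped between genotypes. The part of these features in the lower chaperone levels was not tested.

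Levels of the members in the cell classes of Control animals, which did not choose the genes, were compared in 1 model per set of classes. The level of Hspa5 ran in order from excitatory neurons (14.5 and 14.6 CPM) through inhibitory neurons (21.1 and 17.7), oligodendrocytes (30.2 and 33.0), astrocytes (39.5 and 33.6), OPCs (47.0 and 26.4) and endothelial cells and pericytes (44.3 and 43.4) to microglia (52.3 and 53.5). OPCs overlapped their neighbours on both sides in this order, and the other neighbouring classes did not overlap. Classes differ in which genes make up their UMIs, so the tests used TMM factors, which place the median of all genes near 0. Mitochondrially encoded genes had 254 and 294 CPM in excitatory neurons, 1480 and 1595 in oligodendrocytes and 7472 and 7684 in microglia. Astrocytes, at 1010 and 940, lay below oligodendrocytes. Ribosomal protein genes had 269 and 258 in excitatory neurons and 928 and 947 in microglia. Median UMIs per nucleus were 7999.5 and 8362 in excitatory neurons and 973 and 1029 in microglia. The part of these in the chaperone levels was not tested.

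Oligodendrocytes had higher levels than excitatory neurons for 5 of 8 members tested, against 35.4% of all genes called higher and 37.2% called lower. These were Hspa5 (log2 difference 0.79, SE 0.16, edgeR adjusted p = 1.98e-05), Pdia4 (0.77, SE 0.27), Hsp90b1 (0.45, SE 0.12), Dnajb11 (0.45, SE 0.18) and Canx (0.34, SE 0.10), and no member was lower in Control. DESeq2 did not call Pdia4 (adjusted p = 0.132). In the CrT-KO libraries the differences of Canx and Dnajb11 were 0.03 and 0.05, with edgeR adjusted p of 0.811 and 0.853, while Calr was called higher (0.85, edgeR adjusted p = 0.00454) and Hyou1, not tested in Control, lower (-0.67, edgeR adjusted p = 0.0732). The median difference of the members was 0.40 and that of all genes -0.02.

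Microglia had higher levels than excitatory neurons for 5 of 8 members, against 31.6% of all genes called higher and 37% called lower. Canx (log2 difference 1.17, SE 0.13, edgeR adjusted p = 1.39e-12), Hsp90b1 (1.15 with SE 0.15, edgeR adjusted p = 7.42e-10) and Hspa5 (1.15 with SE 0.23, edgeR adjusted p = 1.40e-05) were the furthest apart, followed by Pdia6 (0.61, SE 0.24) and Pdia3 (0.56, SE 0.16). Pdia6 lost its call when doublets stayed in (edgeR adjusted p = 0.158) and missed the threshold in the CrT-KO libraries (edgeR adjusted p = 0.192). In CPM Canx had 146 and 214 in control microglia and 45.5 and 53.3 in excitatory neurons, and Hsp90b1 had 123 and 127 against 31.8 and 36.5, with no overlap. The members' median difference was 0.59 and that of all genes -0.10. Without normalization factors, where the median of all genes was 0.63 for microglia and 0.33 for oligodendrocytes, all 8 members were called higher in both classes, against 53.4% of genes called higher and 23.3% lower in microglia and 49.1% and 28% in oligodendrocytes.

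Inhibitory neurons differed from excitatory neurons by less. Hspa5 was higher (log2 difference 0.26, SE 0.10, edgeR adjusted p = 0.0277, against 25.6% of all genes called higher) while Pdia6 (-0.33 with SE 0.10, edgeR adjusted p = 0.00636) and Dnajb11 (-0.28 with SE 0.12, edgeR adjusted p = 0.0487) were lower, against 29.3% called lower. Hspa5 was not called in the CrT-KO libraries (0.24, edgeR adjusted p = 0.143), nor in all 4 libraries without Control replicate 1 (0.20, edgeR adjusted p = 0.128). Without normalization factors, where 41.4% of genes were called higher and 19.1% lower, Pdia6 and Dnajb11 were at -0.17 and -0.12 and were not called, and DESeq2 called none of the members in this comparison. Among inhibitory nuclei, PV-like nuclei had more Hsp90b1 than the pooled VIP-like, SST-like and LAMP5-like nuclei (0.32 with SE 0.15, edgeR adjusted p = 0.0881), the 1 member of 9 called, against 17.1% of all genes called higher and 18.2% called lower. DESeq2 called none of the members here.

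**Figure D5:**
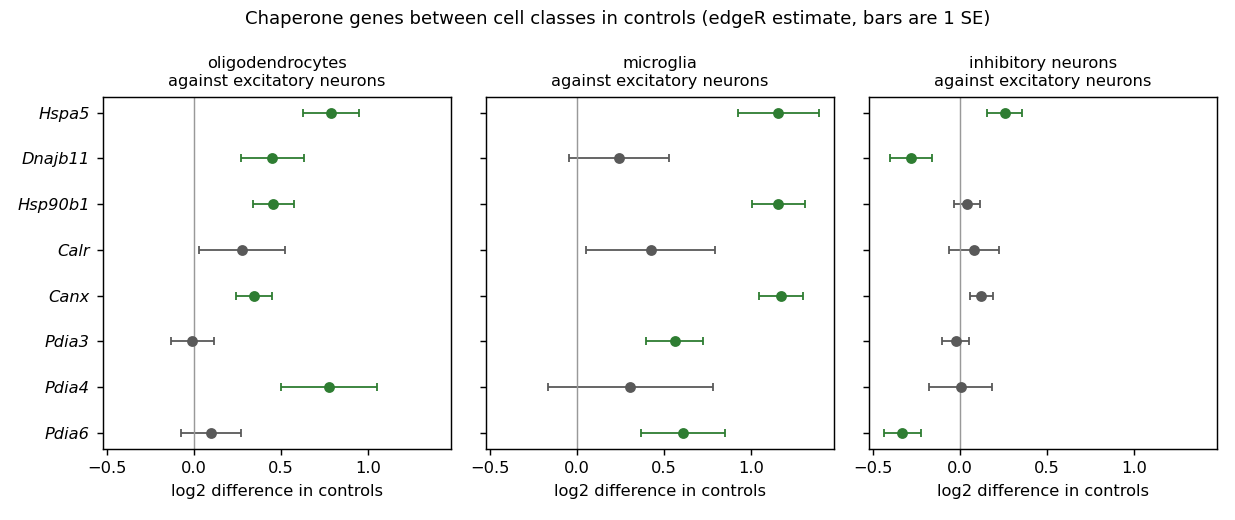
log2 difference of 8 members between cell classes in the 2 Control animals (horizontal axis, edgeR estimate, bars are 1 SE), green where the adjusted p was under 0.1. Of the 8, 5 are higher in oligodendrocytes, 5 in microglia and 1 in inhibitory neurons than in excitatory neurons, and 2 are lower in inhibitory neurons.

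Over the 26 clusters, the genes whose control level followed that of Hspa5 most closely among 11295 genes included Elavl1 (Pearson r 0.917 of log2 values), As3mt (0.916), Suco (0.911) and Nipbl (0.911). Of the 8 other members ranked, Hsp90b1 was nearest (0.775, rank 572), followed by Pdia3 (0.705, rank 1183) and Canx (0.679, rank 1452), and Hyou1 was furthest (0.235, rank 5672). The median gene had r 0.238. Clusters share animals and differ in depth, so these correlations describe the 2 Control libraries only.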

How the data were processed

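Sorted nuclei of 2 Control and 2 CrT-KO mice were sequenced. The deposited matrices hold UMI counts per gene and nucleus, which the authors made with Cell Ranger 3.1.0 on a pre-mRNA reference (GRCm38, Ensembl 99), counting exons and introns. Members, lists and comparisons were chosen with earlier results of these data known. Here all barcodes were used, doublets marked by Scrublet were left out, and nuclei were clustered with scanpy 1.11.5 (3000 variable genes, 30 components, 20 neighbours) without members and list genes. Clusters took a class from marker genes, under a rule on the share of markers detected that was set after the clusters were seen. Cell classes are rebuilt and may differ from those of the study.

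Counts were summed per library and class and tested with edgeR 4.0.16 (R 4.3.3), with genes filtered by filterByExpr, TMM factors, the quasi-likelihood test and Benjamini-Hochberg adjustment over all genes tested, at 0.1. DESeq2 1.42.0 was an alternative. Named genes are all members and the list genes that passed the test. Counts were simulated for 13921 genes in excitatory and 12707 in inhibitory neurons. Of 100 genes given a log2 change of 1 in each class, 88% and 79% were recovered. Of 100 given a change of 0.5, 14% and 8% were recovered. False calls numbered 8 in excitatory and 10 in inhibitory neurons. The simulated spread between libraries need not match the real one. These rates describe the changed genes and need not hold for members with few UMIs or for glia, which were not simulated. A gene with a pattern like that of Hspa5 is not reported here.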

Additional observations from a re-analysis of the deposited data

Results flagged for a closer look

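Canx and Dnajb11 had libraries that did not overlap between genotypes in opposite directions in different cell classes. Canx was lower in CrT-KO oligodendrocytes (log2 fold change -0.36) and higher in CrT-KO OPCs (0.17) and LAMP5-like nuclei (0.14). Dnajb11 was lower in CrT-KO oligodendrocytes (-0.52) and LAMP5-like nuclei (-0.51) and higher in CrT-KO microglia (0.47). None of these differences passed the edgeR test, and the difference between the classes was not tested in either gene.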

How the results depend on the processing

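With 2 animals per genotype, log2 changes of 0.5 were seldom recovered in counts simulated for excitatory and inhibitory neurons. Recovery in glia was not simulated, and members with few UMIs were not tested there. Of 10 members, 1 was called over all named nuclei, and 0 were at a threshold of 0.05, with RLE size factors or with list genes allowed in clustering. In MSN-like nuclei 0 were called at 0.05, by DESeq2 or with doublets kept. In inhibitory neurons DESeq2 called 0 members (Hspa5 -0.85, adjusted p = 0.175). Leaving out 1 library in turn gave 0 to 3 calls over all named nuclei and in excitatory neurons and 0 to 1 in MSN-like nuclei.

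Replicate numbers are shared between genotypes, but no source ties them to a litter or day, and the correlation of deviations of equal numbers ranged from 0.114 to 0.321. With a replicate block 5 members were called over all named nuclei, 4 in excitatory neurons, 1 in PV-like and 0 in MSN-like nuclei, and no other call changed.

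In controls, library sizes alone gave 8 calls for oligodendrocytes and 8 for microglia against excitatory neurons, and 2 for PV-like nuclei. All 4 libraries gave 8 for microglia (6 to 8 leaving out 1 library) and 3 for PV-like nuclei (0 to 2). PV-like nuclei had 0 calls at 0.05, by DESeq2 or without the filter on low counts, and inhibitory against excitatory neurons had 0 by DESeq2. Leaving out a control library left no residual degrees of freedom, so it was run on all 4 libraries, an alternative chosen after seeing the data, as were library sizes alone. The cause of these changes was not tested.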
